A study of Nicotiana tabacum with 6 samples.

Results

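The subject is the heat shock transcription factors of chilled tobacco leaves, described across 6 RNA-seq libraries. The members are the gene models whose description in the expression tables contains the words heat shock factor, a rule that uses no measured value, and they number 57 of 69500 models. Of these, 53 are described by a heat shock factor (HSF)-type DNA-binding domain and 4 as heat shock factor binding 1, a name for proteins that bind the factors. The label therefore holds for 53 members, and the 4 binding proteins are kept apart below. Of the 53, 51 also carry the term heat shock transcription factor family, and 2, Nitab4.5_0002310g0070 and Nitab4.5_0004564g0010, carry the domain terms alone.

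Every library came from young leaves of Nicotiana tabacum seedlings, variety NC82, that had spent 24 h at 4 °C. The 2 groups of 3 libraries were wild type and plants carrying the overexpressed gene NtPhyA, named for a phytochrome, a light receptor. Which listed model, if any, corresponds to the transgene is not given, so its overexpression was not checked here. The sources used here give neither the promoter of the transgene nor the number of lines nor the plants' age in days. No library came from unchilled leaves, so the values hold the difference between the plant materials under cold and no response to cold. Nothing in the labels says that replicates were separate plants, so p-values reflect how these libraries varied, and that variation may be technical.

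Heat shock factors are transcription factors with a winged helix-turn-helix domain that bind heat shock elements in promoters and switch on chaperone genes. Plants have many more of them than animals or yeast. In Arabidopsis and tomato, class A factors act as activators, while most class B factors lack the activator motif and many of them repress. The files do not assign the tobacco models to these classes, and they pair no gene symbols with the models. None of the member identifiers (0 of 57) occurs in the RefSeq gene table used for names, so the members are named below by model identifier.

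Abundance below is the authors' normalized value per model and library. Library sums ran from 440137 to 568208, and 31369 to 33469 models per library were above 0. Read totals were not analysed here, but relative depth, estimated from the step that a single read makes among low values, differed at most 1.35-fold between libraries. Models for leaf proteins were abundant in every library: 93 chlorophyll a-b binding models of the light-harvesting antenna summed to 1678 to 9148 per library, and 14 Rubisco small subunit models to 6560 to 29354. The marker patterns for other organs also matched proteins that leaves make (165 models for pollen allergens, 249 for seed storage), and they could not show whether another organ was present. Of 17962 models whose mean abundance reached 1, limma called 1 higher and 0 lower under overexpression at an adjusted p below 0.05.

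The heat shock factor family was dominated by few models. Of the 53 models with the DNA-binding domain, 4 were listed at 0 in all 6 libraries, 23 were above 0 with a mean under 1, 18 had a mean between 1 and 50 and 8 had a mean of at least 50. The lowest mean of the 8 was 50.7 and the next member had a mean of 16.6, so the 8 stand apart by level. The order of levels between models assumes a value per transcript length, as TPM and FPKM are. In the wild type the 53 models summed to 549.86 (replicate 1), 854.98 (replicate 2) and 1202.58 (replicate 3). Under overexpression the sums were 401.19, 494.98 and 954.67, given, as everywhere below, in the order of the replicate numbers. The groups overlapped, and the sums within a group differed more than the group means, 869 ± 327 and 617 ± 296 (SD, n = 3 each). As a share of all abundance, the family made up 0.119% to 0.212% in wild type and 0.0844% to 0.217% under overexpression. The 8 abundant models held 71.3% to 88.9% of the family sum. The other 45 models summed to between 108.73 and 133.15 in every library, so nearly all of the difference between libraries lay in the 8. In leaf tissue as a whole, fewer cells that express a gene and less RNA per cell cannot be told apart.

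No heat shock factor model passed the test for a difference between the plant materials. Of the 57 members, 27 reached the mean abundance of 1 that the test required, 26 factors and 1 binding protein. None of the 27 was called (limma, Benjamini-Hochberg adjusted p = 0.999 for each), where 0.00557% of all tested models were called higher and 0% lower. In this fit none had an unadjusted p below 0.05, against 2.82% of all tested models. Values were higher under overexpression in 12 and lower in 15, a split that became 14 and 13 when the libraries were scaled to equal totals. Differences are of log2(value + 1), with the wild type subtracted from overexpression, and their median was -0.08, beside -0.01 over all tested models. The groups did not overlap in 1 of the 27, or 3.70%, beside 7.87% of all tested models; that 1 was higher under overexpression, as were 4.01% of all tested models.

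**Figure D1:**
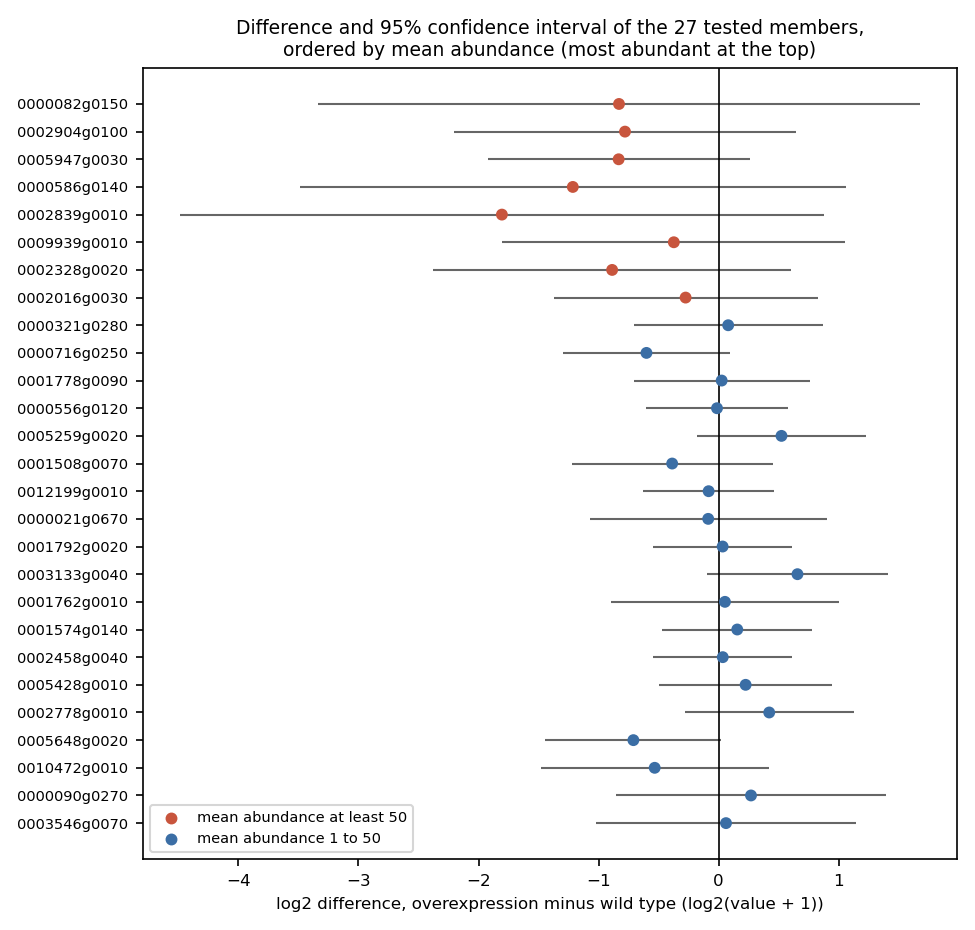
Log2 difference (points, wild type subtracted from overexpression, of log2(value + 1)) with its 95% confidence interval (lines, limma) for the 27 tested members, from the most abundant at the top to the least abundant. All intervals include 0; those of the 8 models whose mean reached 50 are the widest as a group and their points all lie below 0.

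A shared order of the replicates marked 6 of the 8 abundant models. In each of the 6, replicate 3 was the highest and replicate 1 the lowest in wild type, and the same held under overexpression. The most abundant factor, Nitab4.5_0000082g0150, was at 36.19, 186.93 and 254.43 in the wild type and at 18.58, 58.04 and 273.9 under overexpression. The overexpression libraries thus held both the lowest and the highest value, 14.7-fold apart. Its log2 difference was -0.83 ± 1.07 (SE), with a 95% confidence interval from -3.34 to 1.68, and it was 0.071 without overexpression replicate 1.

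Nitab4.5_0000586g0140 was at 25.9, 102.41 and 185.4 in wild type and at 10.14, 32.37 and 110.58 under overexpression. The 3 overexpression values covered a 10.9-fold range that contained the 2 lower wild-type values. Its log2 difference was -1.21 ± 0.97 (SE; interval -3.49 to 1.06), and leaving out 1 library moved it. It was -0.40 when overexpression replicate 1 was dropped, -0.61 for wild-type replicate 3, -2.0 for wild-type replicate 1 and -2.06 for overexpression replicate 3.

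The widest spread belonged to Nitab4.5_0002839g0010, at 33.97, 99.2 and 145.79 in wild type and at 3.44, 21.58 and 119.19 under overexpression. Overexpression replicates 1 and 2 lay below all wild-type libraries, and overexpression replicate 3 lay among them. The overexpression values were 34.6-fold apart and the wild-type values 4.29-fold. Its log2 difference of -1.81 ± 1.14 (SE; interval -4.49 to 0.88) was the largest in size of the 27, with an unadjusted limma p of 0.156 and an adjusted p of 0.999. It was -0.62 without overexpression replicate 1 and -3.00 without overexpression replicate 3.

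The 3 remaining models of this pattern varied less. Nitab4.5_0009939g0010 was at 38.34, 78.79 and 94.87 in wild type and at 24.02, 45.48 and 118.05 under overexpression (log2 difference -0.37 ± 0.61, SE). Nitab4.5_0002328g0020 was at 37.06, 87.15 and 110.51 in wild type and at 16.02, 42.73 and 78.44 under overexpression (-0.89 ± 0.63). That difference was -0.29 when overexpression replicate 1 was dropped, -0.57 for wild-type replicate 3, -1.35 for wild-type replicate 1 and -1.40 for overexpression replicate 3. Nitab4.5_0002016g0030 was at 36.68, 59.68 and 63.38 in wild type and at 23.89, 39.51 and 81.35 under overexpression (-0.28 ± 0.47). In all 3 the groups overlapped. Overexpression replicate 1 was the lowest of the 6 libraries for each of the 6 models. The order that marks the 6 left only the libraries numbered 1 for that place. The share over all tested models, 19.2%, is therefore not a like base.

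**Figure D2:**
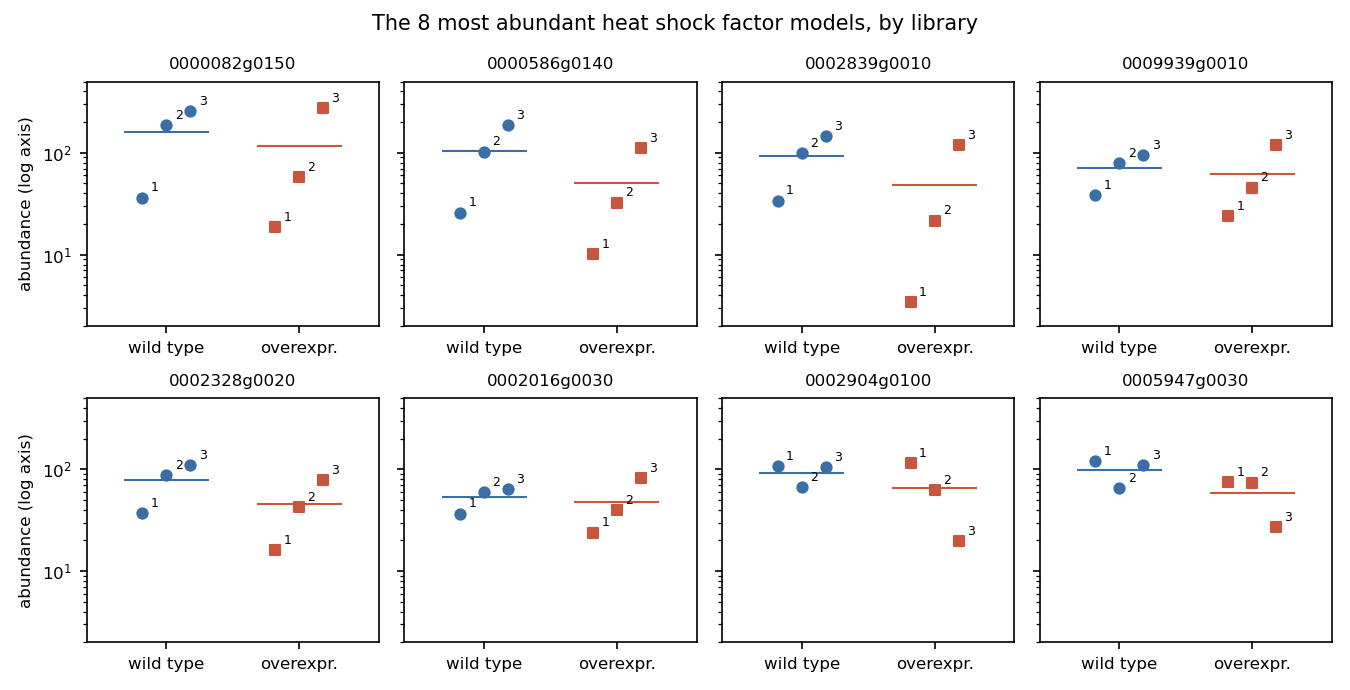
Abundance (log axis) of the 8 heat shock factor models whose mean reached 50, in wild-type (circles) and overexpression (squares) libraries; numbers mark the replicate and horizontal lines the group mean. In the first 6 panels replicate 3 is highest and replicate 1 lowest in both groups; in the last 2, Nitab4.5_0002904g0100 and Nitab4.5_0005947g0030, overexpression replicate 3 is lowest.

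The other 2 abundant models ran differently. Nitab4.5_0002904g0100 was at 106.43, 66.32 and 104.99 in wild type and at 114.46, 62.04 and 19.8 under overexpression. Nitab4.5_0005947g0030 was at 121.13, 65.77 and 110.06 in wild type and at 75.32, 74.03 and 26.98 under overexpression. Overexpression replicate 3, the highest of its group for the 6 models above, was the lowest of all libraries for both, as it was in 28.0% of all tested models. Their log2 differences were -0.78 ± 0.60 and -0.83 ± 0.46 (SE), with unadjusted limma p of 0.237 and 0.115 and adjusted p of 0.999. Without overexpression replicate 3 they were -0.10 and -0.35. On the log2 scale over the 6 libraries, Pearson's r was 0.93 between these 2 models. It was 0.93 to 1.00 over the 15 pairs among the 6 models and -0.68 to -0.19 between the 6 and the 2. These coefficients describe the same 6 libraries, and the 2 sets were drawn after the values were seen.

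The 8 abundant models were all lower in the mean of the overexpression libraries, with a median log2 difference of -0.83. These are not 8 separate observations, as the 6 and the 2 each moved together (Pearson's r of 0.93 or more within each set). How many of all models with a mean of at least 50 were lower was not counted. Without overexpression replicate 1, 5 of 8 were lower and the median was -0.34. In the other settings 7 or 8 of 8 were lower, with medians from -1.19 to -0.59. Some of these settings cannot move a difference and only repeat the median of -0.83. They are the other filters, the replicate number as a block and the fit without the trend and robust options. None of the 8 intervals lay within 1 log2 unit either side of 0, and a value lower by 1 log2 unit under overexpression lay inside all of them.

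The library order of the 6 models also appears in other genes. Replicate 3 highest and replicate 1 lowest in both groups was found in 1851 tested models, 10.3% of all, and in 18.1% of the 1885 models whose mean reached 50. Among the 27 tested members it was found in the 6 and in no other. Ranked from lowest to highest by the sum of the 6 models, the libraries were overexpression replicate 1 (96.09), wild-type replicate 1 (208.14), overexpression replicate 2 (239.71), wild-type replicate 2 (614.16), overexpression replicate 3 (781.51) and wild-type replicate 3 (854.38). The antenna models summed to 9148, 7099, 5094, 3588, 1969 and 1678 in the same libraries, exactly the reverse order. Rubisco small subunit models summed to 29354, 22073, 18662, 12152, 11895 and 6560, again in reverse. Single models followed this full order less often: Nitab4.5_0000586g0140 alone of the 6, and 316 tested models, 1.76% of all. The 176 photosystem subunit models summed to 22535, 16951, 15201, 11744, 8165 and 11042, in reverse save that overexpression replicate 3 lay below wild-type replicate 3. Estimated depth also ran nearly in reverse, with small steps between libraries. Relative to the shallowest, wild-type replicate 3, it was 1.348 in overexpression replicate 2, 1.242 in wild-type replicate 1 and 1.123 in overexpression replicate 1. It was 1.118 in wild-type replicate 2 and 1.043 in overexpression replicate 3. By these estimates only overexpression replicates 1 and 2 traded places, but 1.123 and 1.118 are nearly tied and their order is uncertain. The part that leaf gene content and depth play in the spread of the 6 models was not tested.

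**Figure D3:**
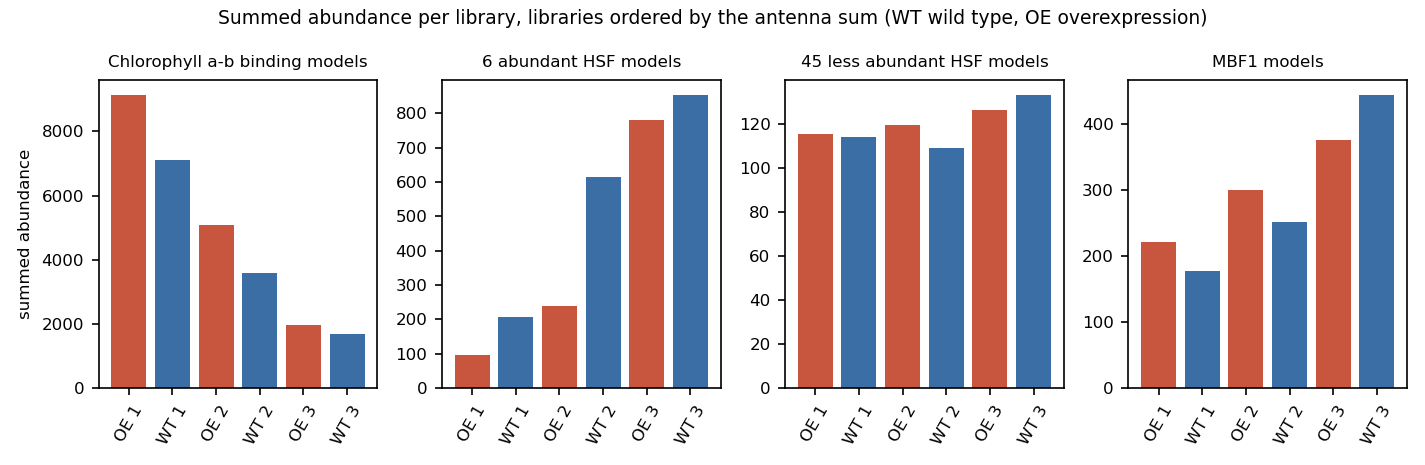
Summed abundance per library of the 93 antenna models, the 6 abundant heat shock factor models, the 45 less abundant heat shock factor models and the 7 models of multiprotein bridging factor 1 (MBF1), with libraries ordered by the antenna sum in every panel and each vertical axis starting at 0. From left to right the antenna sum falls from 9148 to 1678 and the sum of the 6 rises from 96.09 to 854.38, while the 45 stay between 108.73 and 133.15.

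The spread of the abundant factors was large for tested models in general. The pooled SD within groups on the log2 scale placed Nitab4.5_0002839g0010, Nitab4.5_0000082g0150 and Nitab4.5_0000586g0140 at the 99.7th, 99.4th and 99.0th percentile of all tested models. The other 5 abundant models were between the 76.8th and the 91.5th percentile. Against the 1885 models of like level, with a mean of at least 50, the 8 ran from the 74.3rd to the 99.6th percentile. The 19 members with a mean between 1 and 50 had a median percentile of 35.7, and 12 of them varied less than the median tested model. These 19 were ranked against models of every level, and adding 1 before the log2 step shrinks the spread of low values.

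**Figure D4:**
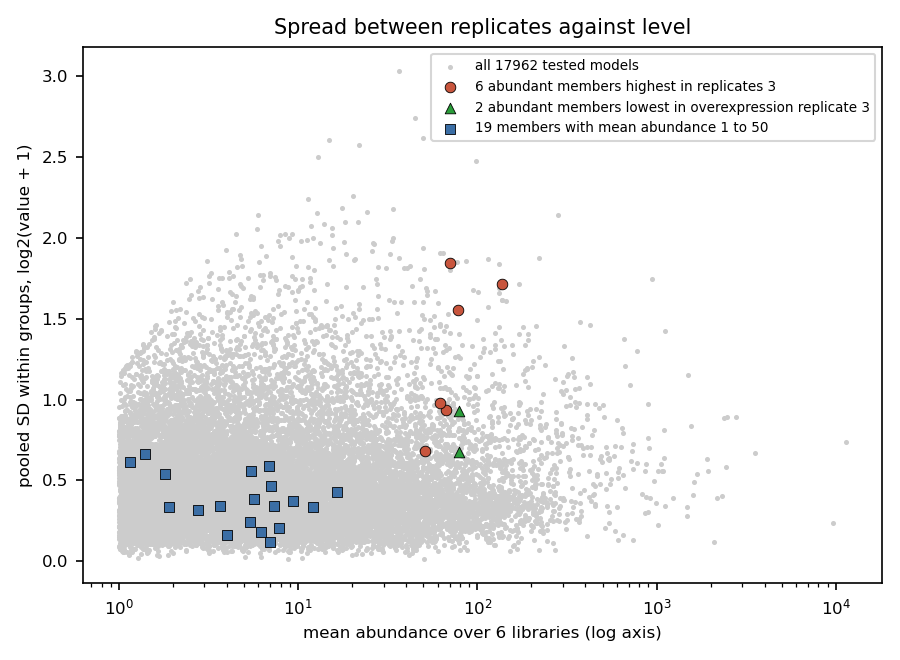
Pooled SD within groups of log2(value + 1) against mean abundance (log axis) for all tested models (grey) and the 27 tested members. The 6 abundant models with replicates 3 highest and the 2 others sit in the upper part of the cloud, and the 19 members with a mean between 1 and 50 sit mostly in its lower part.

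Factors at moderate levels varied about as much as other models of their level. For the 13 members with a mean between 4 and 50 the highest library was, in the median, 2.18 times the lowest, beside 2.34 times for all models of that level with no library at 0. Over the 19 members the ratio ran from 1.27 to 9.58. The steadiest was Nitab4.5_0012199g0010, at 6.85, 7.2 and 7.55 in wild type and at 6.62, 6.01 and 7.66 under overexpression, with the highest library 1.27 times the lowest. Its spread was at the 1.89th percentile of tested models and its log2 difference was -0.08, with an interval from -0.63 to 0.46 and the opposite sign under scaling to equal totals. Nitab4.5_0000321g0280, the most abundant factor outside the 8, was at 12.37, 11.87 and 25.47 in wild type and at 15.93, 14.96 and 18.88 under overexpression. The means were 16.6 in both groups and the wild-type range enclosed the overexpression range (log2 difference 0.08 ± 0.34, SE). In 8 of the 19 members the whole interval lay within 1 log2 unit either side of 0, so for these 8 a difference of 1 log2 unit was outside the 95% confidence interval.

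Several factors at these levels had the smallest unadjusted p-values of the family, and none passed the adjusted threshold. Nitab4.5_0005648g0020 was at 2.78, 1.54 and 3.54 in wild type and at 1.02, 1.54 and 0.94 under overexpression. The groups met at 1.54, and the log2 difference was -0.71 ± 0.31 (SE), with an unadjusted limma p of 0.0555 and an adjusted p of 0.999. Nitab4.5_0000716g0250 was at 15.74, 10.6 and 18.06 in wild type and at 9.45, 11.34 and 7.22 under overexpression. Overexpression replicate 2 exceeded the lowest wild-type library (-0.60 ± 0.30, SE), with an unadjusted limma p of 0.0793. Nitab4.5_0010472g0010 was at 3.79, 1.32 and 1.83 in wild type and at 1.22, 2.14 and 0.49 under overexpression, with overlap (-0.53 ± 0.40, SE). Dropping wild-type replicate 1 made this -0.23, and dropping overexpression replicate 3 made it -0.26.

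Higher values under overexpression were led by Nitab4.5_0003133g0040, the only tested member whose groups did not overlap. It was at 3.71, 4.57 and 3.91 in wild type and at 5.51, 5.37 and 11.16 under overexpression. The log2 difference of 0.66 ± 0.32 (SE; interval -0.10 to 1.41) had an unadjusted limma p of 0.0794 and an adjusted p of 0.999. Without overexpression replicate 3 the difference was 0.35, and the other 2 libraries exceeded the highest wild-type value by less than 1 unit of abundance. Nitab4.5_0005259g0020 was at 6.48, 5.15 and 5.53 in wild type and at 7.83, 6.38 and 12.68 under overexpression, again highest in replicate 3 (0.52 ± 0.30, SE, and 0.27 without that library). Nitab4.5_0002778g0010 was at 2.04, 1.77 and 2.74 in wild type and at 4.76, 2.76 and 2.49 under overexpression, with overlap (0.42 ± 0.30, SE, and 0.20 without overexpression replicate 1). Across the 19 members with a mean between 1 and 50, 12 were higher and 7 lower, and the median log2 difference was 0.03.

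The models under the abundance minimum were not tested. Of the 30 members left out, 6 were listed at 0 in every library, namely 4 factors and 2 binding proteins. The highest mean among the others was 0.797, in Nitab4.5_0002998g0060, beside 1.15 for the lowest tested member. It was listed at 0 in wild-type replicates 1 and 3 and at 1.75 in replicate 2, and at 1.29, 0.49 and 1.25 under overexpression. Whether a listed 0 is a failed estimate was not tested.

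Among these low models, 4 were listed at 0 throughout one group and above 0 throughout the other. Nitab4.5_0000645g0120 was at 0 throughout the wild type and at 1.63, 1.43 and 0.69 under overexpression. Nitab4.5_0006360g0010 was listed at 0 in wild type and at 1.14, 0.55 and 0.32 under overexpression, and Nitab4.5_0000685g0020 at 0 and at 0.27, 1.36 and 0.3. Nitab4.5_0000663g0110 went the other way, at 0.24, 0.51 and 0.79 in wild type and listed at 0 under overexpression. Among all 25534 models under the minimum and above 0 in some library, 0.732% were at 0 in all wild-type and above 0 in all overexpression libraries, and 0.501% the reverse. These are values of few reads, and the 4 models were singled out after their values were seen. With the minimum lifted, no member was called, and the smallest adjusted p of a member was 0.904.

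Tobacco is an allotetraploid with many near-identical gene copies, so each member's value depends on how reads were shared out among its copies, which is uncertain. The members Nitab4.5_0001778g0090 and Nitab4.5_0001778g0030 share an identifier stem and differed in level. The first was at 7.97, 9.91 and 9.29 in wild type and at 6.16, 9.26 and 13.44 under overexpression. The second did not exceed 0.21 in any library. Whether they are copies of each other was not tested.

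Proteins that bind heat shock factors attenuate them in animals and Arabidopsis. The 4 models described as heat shock factor binding 1 were scarce in these leaves. Nitab4.5_0003546g0070 was at 1.87, 0.26 and 1.15 in wild type and at 2.35, 0.44 and 0.83 under overexpression (log2 difference 0.06 ± 0.46, SE; limma adjusted p = 0.999). Nitab4.5_0000191g0110 was at 0.56, 0.16 and 1.33 in wild type and at 0.3, 0.67 and 0.85 under overexpression. The other two, Nitab4.5_0000570g0120 and Nitab4.5_0004438g0100, were listed at 0 in all libraries. The 4 models together summed to 0.42 to 2.48 in wild type and 1.11 to 2.65 under overexpression, beside 401.19 to 1202.58 for the 53 factors.

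Chaperone families, and other proteins linked to the heat shock response, showed no called difference. The lists were drawn by description, and which of their models the heat shock factors control was not tested. Small heat shock proteins of the HSP20 fold hold unfolding proteins, HSP70 with its DnaJ partners refolds them, HSP90 matures client proteins and ClpB pulls aggregates apart. The numbers of tested models were 39 of 123 for HSP20, 24 of 70 for HSP70, 13 of 27 for HSP90, 9 of 26 for ClpB and related Clp ATPases and 125 of 262 for DnaJ. None was called in either direction. Median log2 differences were -0.14, -0.15, -0.11, -0.12 and -0.04 in that order, beside -0.01 over all tested models. In the HSP20 list 7 of 39 tested models did not overlap between the groups, or 17.9%, and 5, or 12.8%, had an unadjusted limma p below 0.05, beside 7.87% and 2.82% of all tested models. Without overlap were 4.17% of the tested HSP70 models, 7.69% of HSP90, 0% of Clp and 8% of DnaJ. The shares with such a p were 4.17%, 0%, 0% and 1.6% in that order. As sums, HSP20 models were at 706.54, 720.02 and 913.29 in wild type and at 627.43, 700.42 and 618.08 under overexpression, and Clp models at 42.47, 45.73 and 39.94 and at 38.78, 34.87 and 35.23. Neither sum overlapped between the groups as deposited, and both were lower under overexpression. Library totals ran from 440137 (overexpression replicate 3) to 568208 (wild-type replicate 3). As a share of each library's total, both sums overlapped between the groups. The HSP70, HSP90 and DnaJ sums overlapped as deposited. The sums were looked at after the values were seen. Of the HSP20 list, 94 models carry the alpha crystallin domain of small heat shock proteins and 29 carry other terms of the HSP20-like fold. The 94 summed to 290.03, 335.99 and 516.99 in wild type and to 242.13, 305.29 and 330.13 under overexpression, with overlap.

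The most abundant HSP20 model, Nitab4.5_0003264g0010, shared the library order of the 6 abundant factors. It was at 133.22, 233.15 and 397.42 in wild type and at 108.71, 198.17 and 240.37 under overexpression (log2 difference -0.42 ± 0.49, SE; limma adjusted p = 0.999). The difference was -0.026 when wild-type replicate 3 was dropped, -0.083 for overexpression replicate 1, -0.65 for overexpression replicate 3 and -0.81 for wild-type replicate 1. With this model left out, the alpha crystallin models summed to 102.84 to 156.81 in wild type and 89.76 to 133.42 under overexpression, highest in the replicates numbered 1. The next HSP20 model by level, Nitab4.5_0004130g0020, a CS-domain protein, was at 62.0 ± 7.1 and 56.4 ± 9.5 (SD, n = 3 each). The smallest unadjusted p of the chaperone models, 0.00786, belonged to the HSP20 model Nitab4.5_0000073g0350 by limma. It was at 7.82, 3.77 and 2.79 in wild type and at 1.3, 1.33 and 0.98 under overexpression, with no overlap and a log2 difference of -1.30 ± 0.36 (SE; adjusted p = 0.999).

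The larger chaperones did not follow the order of the 6 factors as sums. HSP90 models summed to 298.35, 297.66 and 212.51 in wild type and to 303.63, 264.65 and 174.19 under overexpression, lowest in both replicates numbered 3. The HSP70 model Nitab4.5_0000349g0130 averaged 1041 ± 497 in the wild type, against 1092 ± 303 under overexpression, and Nitab4.5_0009884g0020 at 307 ± 309 and 143 ± 25 (SD, n = 3). The wild-type mean of the second rested on replicate 2, at 663.71, with the other libraries between 118.63 and 170.31. Another HSP70 model, Nitab4.5_0012222g0020, was at 20.31, 20.23 and 37.4 in wild type and at 11.36, 18.25 and 11.96 under overexpression, with an unadjusted limma p of 0.0406 and an adjusted p of 0.999. Among HSP90 models, the endoplasmin Nitab4.5_0000337g0060 was at 43.4 ± 16.3 and 36.6 ± 21.9, its neighbour in numbering Nitab4.5_0000337g0070 at 39.0 ± 12.0 and 40.0 ± 19.1, and Nitab4.5_0001622g0050 at 8.69 ± 1.51 and 5.66 ± 0.76. The Clp ATPase Nitab4.5_0007669g0010 was at 4.08, 5.59 and 18.74 in wild type and at 2.68, 5.18 and 15.07 under overexpression, again with both replicates 3 highest and both replicates 1 lowest. The Clp model Nitab4.5_0001150g0030 was at 7.17 ± 5.03 and 7.36 ± 0.58. Another, Nitab4.5_0001485g0200, was at 7.65, 3.28 and 2.58 in wild type and at 3.86, 3.2 and 0.46 under overexpression. The DnaJ models Nitab4.5_0001781g0190 and Nitab4.5_0000039g0180 were at 171 ± 11 and 140 ± 34 in wild type and at 167 ± 18 and 115 ± 18 under overexpression. A DnaJ domain model, Nitab4.5_0005579g0030, was at 16.92, 16.96 and 9.39 in wild type and at 29.29, 24.15 and 25.87 under overexpression, with no overlap (0.87 ± 0.29, SE), with an unadjusted limma p of 0.0199 and an adjusted p of 0.999.

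Multiprotein bridging factor 1 is a transcriptional coactivator whose C form acts in the heat response of Arabidopsis. Its 7 models summed to 176.93, 251.87 and 445.24 in wild type and to 221.44, 300.38 and 376.89 under overexpression. The library with the highest value in each group was replicate 3, as for the 6 factors. The sum rested on Nitab4.5_0000383g0170, at 114.13, 192.08 and 321.35 in wild type and at 155.82, 229.24 and 311.92 under overexpression (log2 difference 0.22 ± 0.45, SE; limma adjusted p = 0.999). Of the 5 tested models, this 1 shared the order, and none was called. Nitab4.5_0003565g0020 was at 37.9 ± 11.2 and 34.4 ± 2.4, and Nitab4.5_0006953g0020 at 23.4 ± 8.8 and 18.8 ± 0.5 (SD, n = 3).

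Lists of other proteins linked to the response had no called model either: 8 tested BAG domain co-chaperones, 25 FKBP-type immunophilins and 12 ascorbate peroxidases. Their median log2 differences were -0.07, 0.14 and 0.01. The groups did not overlap in 0%, 4% and 0% of them, beside 7.87% of all tested models. The BAG model Nitab4.5_0013021g0030 was at 27.32, 46.55 and 6.62 in wild type and at 17.2, 16.18 and 12.13 under overexpression. Another, Nitab4.5_0000721g0290, was at 24.1 ± 9.8 and 16.6 ± 2.4 (SD, n = 3). The FKBP models Nitab4.5_0001264g0200 and Nitab4.5_0002650g0070 were at 76.8 ± 38.5 and 65.4 ± 22.8 in wild type and at 53.4 ± 4.2 and 51.3 ± 1.9 under overexpression. Another, Nitab4.5_0010261g0010, was at 4.94, 4.81 and 2.66 in wild type and at 12.63, 8.2 and 5.53 under overexpression, without overlap, with an unadjusted limma p of 0.0397 and an adjusted p of 0.999. The most abundant ascorbate peroxidase, Nitab4.5_0000022g0310, was at 317 ± 73 and 302 ± 24, followed by Nitab4.5_0012050g0010 at 110 ± 8 and 113 ± 12, while Nitab4.5_0006152g0030 was at 3.32 ± 2.70 and 1.48 ± 1.05. The list meant for galactinol and raffinose synthases matched 0 descriptions.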

How the data were processed

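RNA was sequenced from 6 libraries of chilled tobacco leaves, 3 wild type and 3 overexpressing NtPhyA, grouped by the labels. The deposited values, a normalized expression signal per gene model, come in 1 table per plant material. The submitters' processing notes name RSEM, StringTie and HISAT2; their versions, the genome build and whether the unit is TPM or FPKM are not stated in what was used here. Whether the 2 tables were normalized together is not stated, so levels across them assume comparable values. The authors' 2 columns of group means were not used.

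Values were transformed to log2(value + 1), and models with a mean of at least 1 entered a fit by limma 3.58.1 (R 4.3.3; trend and robust empirical Bayes, group alone, 4 residual degrees of freedom), with Benjamini-Hochberg adjustment over all tested models and calls below 0.05. The fit was tested on simulated data. Named with every library's value were the 10 members of highest mean, the 10 of smallest p, members whose groups do not overlap and factor-binding proteins; of each pathway list, the 2 of highest mean and the 1 of smallest p, mostly as means. Further members were named after their values were seen. The members and lists were chosen with earlier results of these data known. Alternatives were a pseudocount of 0.1, other filters, 3 scalings, the replicate number as a block, no trend or robust option and leaving out libraries; leaving out both libraries of 1 number was added after seeing the data.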

Additional observations from a re-analysis of the deposited data

How the results depend on the processing

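No heat shock factor member was called in any of the 16 alternatives, where the smallest adjusted p of a member was 0.705, with the replicate block (replicate number as a factor). The count of calls over all tested models, 1, was the same with the filter of at least 1 in at least 3 libraries and without the trend and robust options. The count was 0 with a pseudocount of 0.1, with no filter, with equal totals, with median ratio scaling, with quantile normalization, with the replicate block, with both replicates numbered 1 or 3 left out and without any single library (lowest and highest both 0). Same-numbered libraries correlated in their deviations at 0.56, -0.11 and 0.42 for numbers 1, 2 and 3, and unlike-numbered 1 and 3 at -0.58 and -0.44. Number 2 fell short of the limit of 0.1 set for every pair, so the block stayed an alternative, although numbers 1 and 3 did deviate together. The block moved the models with an unadjusted limma p below 0.05 from 507 to 1183 of 17962, and the members from 0 to 3 of 27. With no filter, 4 of 51 members had such a p, beside 1103 of 43495 models. In the other alternatives 0 to 2 members did. The median of the 27 members stayed between -0.17 and 0.01, and the difference of the family sum, -252, between -421 and -85.5. Scaling to equal totals put the median of all models at 0.07, from -0.01. Every library was otherwise used as deposited, and the unit and the comparability of both tables limit all levels.

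Of the 27 tested members, 16 changed sign in some alternative, 14 of them when a single library was left out. All were uncalled, and the cause was not tested. Values follow for the models named by the rule for named genes alone. With equal totals, Nitab4.5_0000337g0070 was at 0.041, Nitab4.5_0001781g0190 at 0.062, Nitab4.5_0003565g0020 at 0.0011 and Nitab4.5_0000022g0310 at 0.061. With quantile normalization, Nitab4.5_0003546g0070 was at -0.013, Nitab4.5_0000337g0070 at 0.042, Nitab4.5_0001781g0190 at 0.14, Nitab4.5_0003565g0020 at 0.0041 and Nitab4.5_0000022g0310 at 0.15. Without both replicates numbered 1, Nitab4.5_0000321g0280 was at -0.051, Nitab4.5_0003546g0070 at -0.020 and Nitab4.5_0001150g0030 at -0.018. Without both replicates numbered 3, Nitab4.5_0002904g0100 was at 0.0046, Nitab4.5_0000349g0130 at -0.40, Nitab4.5_0000337g0060 at 0.083, Nitab4.5_0000337g0070 at 0.42, Nitab4.5_0001150g0030 at -0.031, Nitab4.5_0001781g0190 at 0.024, Nitab4.5_0003565g0020 at 0.17, Nitab4.5_0006953g0020 at 0.047, Nitab4.5_0001264g0200 at 0.031, Nitab4.5_0002650g0070 at 0.0041 and Nitab4.5_0000022g0310 at 0.067.

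Leaving out single libraries, the log2 differences of those named factors that changed sign ran from -1.84 to 0.071 (Nitab4.5_0000082g0150), -0.97 to 0.15 (Nitab4.5_0009939g0010), -0.73 to 0.13 (Nitab4.5_0002016g0030) and -0.10 to 0.42 (Nitab4.5_0000321g0280), and that of the binding protein from -0.29 to 0.33 (Nitab4.5_0003546g0070). The first 3 changed sign only without overexpression replicate 1. Among the list models they ran from -0.33 to 0.42 (Nitab4.5_0000337g0070), -0.15 to 0.59 (Nitab4.5_0000383g0170), -1.10 to 0.14 (Nitab4.5_0009884g0020), -1.20 to 0.12 (Nitab4.5_0013021g0030), -0.19 to 0.50 (Nitab4.5_0000349g0130), -0.87 to 0.31 (Nitab4.5_0007669g0010), -0.090 to 0.67 (Nitab4.5_0001150g0030), -0.23 to 0.12 (Nitab4.5_0003565g0020), -0.39 to 0.031 (Nitab4.5_0006953g0020), -0.19 to 0.13 (Nitab4.5_0000022g0310), -0.027 to 0.13 (Nitab4.5_0012050g0010), -0.13 to 0.0075 (Nitab4.5_0001781g0190) and -0.82 to 0.20 (Nitab4.5_0000337g0060). The 3 libraries a group limit precision: intervals of members were up to 5.36 log2 units wide.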
